A study of Camelus dromedarius with 10 samples.

Results

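The 8 genes described here encode enzymes that make, recycle, consume or protect arginine on its way to nitric oxide (NO): ASS1, NOS1, NOS2, NOS3, ARG1, ARG2, DDAH1 and DDAH2. They were taken by name, whatever their counts, from the 22444 gene IDs of a camel RNA-seq count table, through the pairs of Ensembl ID and gene symbol in the supplementary tables of the study. All 8 had an ID. ASS1 had one only in a table of the study that lists genes in the order of their p-values, so a gene that differed was more likely to be paired there, and its test below has to be read with that in mind. The other 7 were paired in functional catalogues that do not depend on the comparison, NOS3 through the name of its human ortholog.

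The tissue was the rostral supraoptic nucleus (SON) of the hypothalamus, punched from frozen sections of male dromedary camels (Camelus dromedarius) of 1 narrow age range. RNA was sequenced after removal of ribosomal RNA from 5 control camels with free access to food and water, and from 5 camels with free access to food and no water for 20 days (WD). Each library came from a separate camel. All animals were housed outdoors in the hot season, and a punch holds neurones, glia and vessels together, so that fewer cells of a type and less RNA per cell cannot be told apart in these values.

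Argininosuccinate synthetase (ASS1) joins citrulline to aspartate and so starts the return of citrulline to arginine. The 3 NO synthases turn arginine into NO and citrulline: NOS1 is the neuronal enzyme, NOS2 the inducible enzyme of activated immune and glial cells, and NOS3 the endothelial enzyme. Arginases compete for the same arginine and split it into ornithine and urea, ARG1 in the cytosol, best known in liver, and ARG2 in mitochondria. The dimethylarginine dimethylaminohydrolase DDAH1 is known for clearing methylated arginines that inhibit NO synthases, and DDAH2 is its paralogue. In the magnocellular neurones of the SON, which make vasopressin and oxytocin, NO is known as a local modulator of firing and hormone release, and much of its action elsewhere runs through soluble guanylate cyclase and cyclic GMP.

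Total counts per library ranged from 1665098 to 8126641 read pairs, but 5 gene IDs took 27.7% to 76.1% of a library. Of the control libraries, CON13 kept the fewest counts for all other genes (397495), and of the WD libraries WD6 did (1106575). Levels are given as CPM, read counts scaled to a common library size, after TMM normalization, and on that scale 1 read pair was worth 1.2 CPM in CON13, 0.475 CPM in WD6 and 0.0864 to 0.237 CPM in the other 8 libraries. A gene of low count is therefore least precise in CON13. CPM does not take gene length into account and no gene lengths were used here, so levels are compared between libraries, not between enzymes. Of the 7 markers of magnocellular neurones looked for, PDYN, SIM1, OTP and ARNT2 had an ID and were counted in all 10 libraries, and AVP, OXT and POU3F2 were not paired with one.

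Of the 8 enzymes, 7 had enough counts to be tested and 1, ASS1, was lower in WD at a threshold of 0.05 on padj. This is the p of the quasi-likelihood test of edgeR, adjusted by the Benjamini-Hochberg method across 14432 genes. Over all genes tested, 72 passed, which is 0.499%, and those lower in WD were 0.229%. ASS1 was also the only one of the 7 whose control and WD libraries did not overlap in CPM, against 2.62% of all genes tested. The median log2 fold change of the 7 was −0.38, beside 0.02 over all genes tested. Point estimates were below 0 for ASS1 and the 3 NO synthases, close to 0 for both DDAH genes and above 0 for ARG2.

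**Figure D1:**
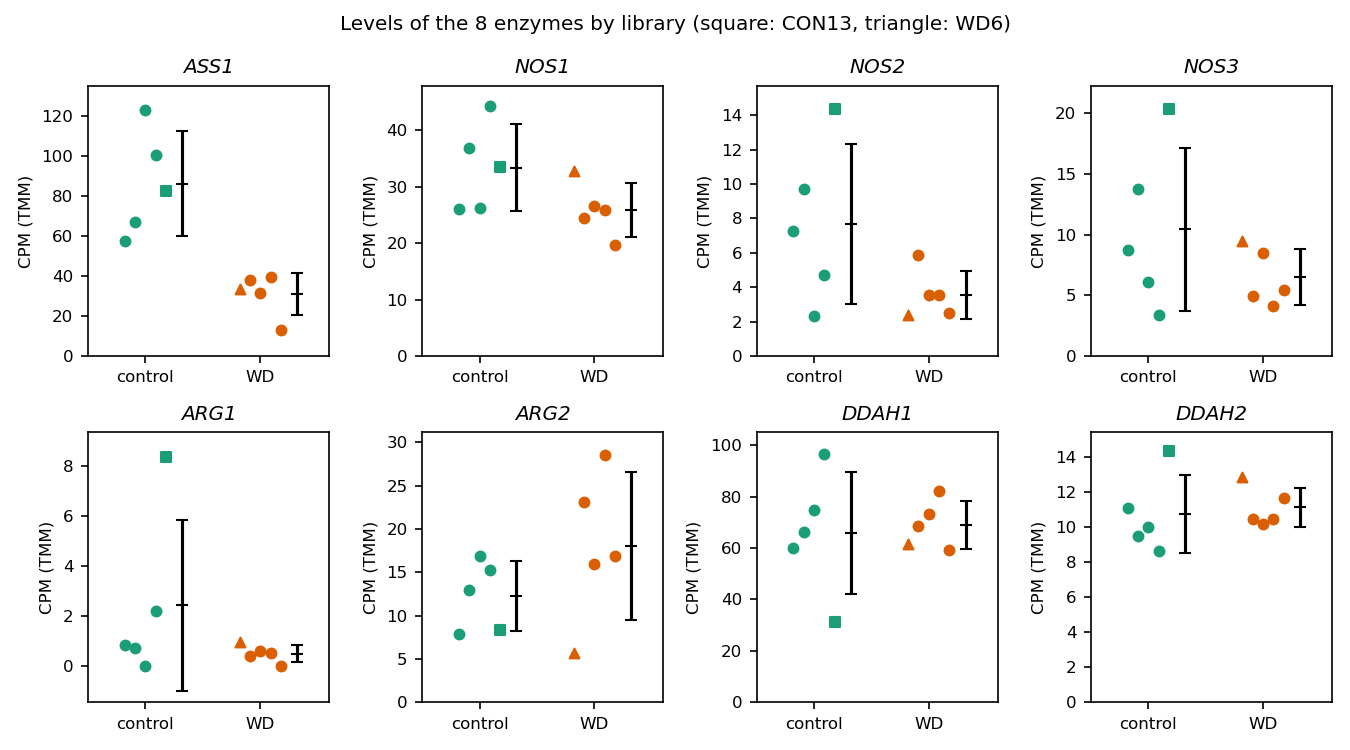
Level of each enzyme in CPM after TMM normalization (linear vertical axes, each with its own scale) in the 5 control libraries (green) and the 5 WD libraries (orange). Each point is 1 camel, and the bar beside each group is the mean with its SD. CON13 is a square and WD6 a triangle. In ASS1 every WD library (13.1 to 39.6 CPM) sits below every control library (57.6 to 123 CPM), and in the other panels the groups overlap.

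ASS1 was the enzyme with the clearest difference between the conditions. In the control libraries CON2, CON3, CON4, CON5 and CON13 its level was 57.6, 66.9, 123, 100.4 and 82.5 CPM. In the WD libraries WD6, WD7, WD8, WD9 and WD15 it was 33.2, 37.9, 31.5, 39.6 and 13.1 CPM. The highest WD library lay below the lowest control library, 4 of the 5 WD libraries were close together, and WD15 was far below them. The counts behind these levels were 69 to 1071 read pairs in the control libraries and 63 to 458 in the WD libraries, so ASS1 was well counted even in the thinnest library.

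The mean level of ASS1 was 86.1 ± 26.2 CPM in control and 31.1 ± 10.6 CPM in WD (SD, n = 5 each). The log2 fold change was −1.47 with a standard error of 0.268 and a 95% interval from −2.03 to −0.91, which is a level 2.77 times lower in WD (1.87 to 4.09 times). Its padj by edgeR was 0.0144. Of the 33 genes called lower in WD, 14 had a log2 fold change below that of ASS1. DESeq2's Wald test gave a log2 fold change of −1.47 and a padj of 1.06e-04, where 209 of 16447 genes passed (1.27%).

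The call of ASS1 did not rest on WD15: without that library the log2 fold change was −1.27 and the edgeR padj 0.0191. Without CON5 the log2 fold change was −1.41 and the padj 0.0577, just over the threshold. With libraries scaled by their totals alone it was −1.28, with a padj of 0.919. ASS1 has processed pseudogenes in the human genome, and how read pairs shared between copies were counted is not given in the sources used here.

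Markers of other cell types were summed in each library to set beside ASS1. Mural and fibroblast markers (5 of 5 paired) summed to 129 to 164 CPM in control and 80.4 to 114 CPM in WD, so that the sum was also lower in every WD library than in any control library. COL1A1 was called lower by edgeR, beside 0.229% of all genes tested. DESeq2 called COL1A1, COL3A1 and HEYL lower, beside 1.27% of all genes called in either direction. The study's own qRT-PCR of the rostral SON did not bear out a change of COL1A1 or COL3A1 in WD. PDGFRB had 36.9 ± 2.09 CPM in control and 42.2 ± 9.45 CPM in WD and was not called. Microglial markers (10 of 10 paired, 5 of them only through the p-ordered table; none called by edgeR and 1, CTSS, by DESeq2; all 10 with a point estimate above 0) summed to 213 to 318 CPM in control and 266 to 760 CPM in WD. The highest sum, 760 CPM, was in WD15, the library with the lowest ASS1 and also with the highest sums of endothelial (310 CPM) and astrocyte markers (148 CPM), and the other 4 WD libraries had 266 to 437 CPM. The 4 paired magnocellular markers summed to 501 to 699 CPM in control and 830 to 1253 CPM in WD, but only PDYN, called higher, had a point estimate above 0 (162 ± 46.4 CPM in control, 618 ± 127 CPM in WD), and those of SIM1, OTP and ARNT2 were below 0 and not called. No marker in these lists was at 0 in all libraries. The part of these cell types in the lower ASS1 was not tested.

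The neuronal NO synthase NOS1 had 26.0, 36.9, 26.2, 44.4 and 33.5 CPM in CON2, CON3, CON4, CON5 and CON13. It had 32.7, 24.5, 26.6, 25.9 and 19.6 CPM in WD6, WD7, WD8, WD9 and WD15. The groups overlapped: CON2 and CON4 lay among the WD libraries, WD6 lay among the control libraries, and WD15 was the lowest of all. The mean was 33.4 ± 7.73 CPM in control and 25.9 ± 4.72 CPM in WD (SD, n = 5 each). WD over control gave a log2 fold change of −0.38 with a 95% interval from −0.81 to 0.05 and an edgeR padj of 0.608. A decrease of the size seen for ASS1 lies outside this interval.

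NOS1 lies next to ASS1 in the citrulline cycle, as the enzyme that makes the citrulline which ASS1 takes up, and their ratio within a library does not depend on the scaling between libraries. The log2 ratio of ASS1 to NOS1 was 1.14, 0.858, 2.23, 1.18 and 1.30 in CON2, CON3, CON4, CON5 and CON13. In WD6, WD7, WD8, WD9 and WD15 it was 0.021, 0.628, 0.244, 0.609 and −0.57. The groups did not overlap, with CON4 highest and WD15 lowest. The mean was 1.34 ± 0.522 in control and 0.19 ± 0.496 in WD, a difference of −1.16, so ASS1 was lower in WD relative to NOS1 of the same library. A two-sided exact permutation test gave p = 0.00794, the smallest that 5 against 5 libraries allow, and 0.0159 after adjustment over the 2 ratios computed. Since ASS1 was known to be lower when this ratio was chosen, the test is no independent evidence for its decrease.

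**Figure D2:**
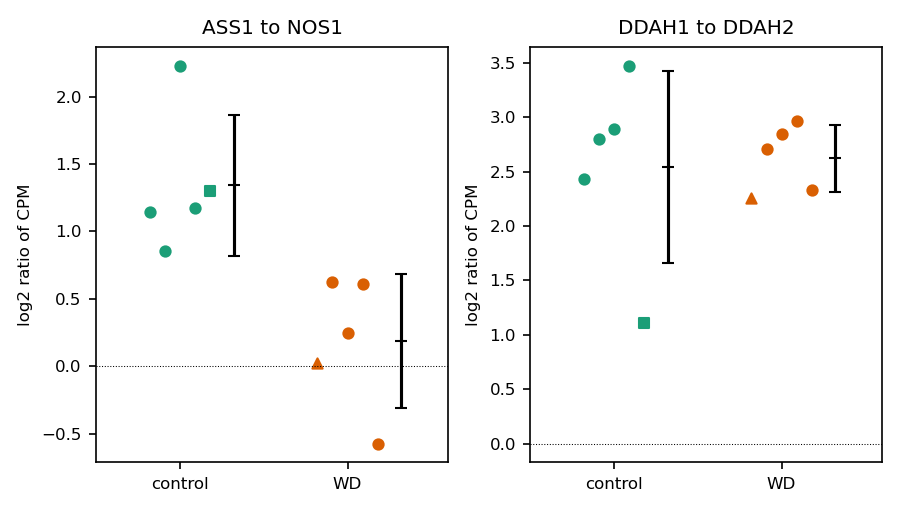
Log2 ratio of CPM within each library, for ASS1 to NOS1 (left) and DDAH1 to DDAH2 (right), with 1 point per camel (green, control; orange, WD; square, CON13; triangle, WD6) and the mean with SD beside each group. The ASS1 to NOS1 ratio ranges from 0.858 to 2.23 in control and from −0.57 to 0.63 in WD, while the ranges of the DDAH1 to DDAH2 ratio overlap and CON13 alone lies at 1.11.

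The inducible NO synthase NOS2 was counted by few read pairs, 5 to 46 in each library. Its level was 7.26, 9.70, 2.29, 4.68 and 14.3 CPM in CON2, CON3, CON4, CON5 and CON13, and 2.37, 5.87, 3.53, 3.54 and 2.5 CPM in WD6, WD7, WD8, WD9 and WD15. The lowest value of all was in a control library, CON4, and the highest in CON13, where it rested on 12 read pairs. Control libraries averaged 7.66 ± 4.66 CPM and WD libraries 3.56 ± 1.40 CPM (SD, n = 5 each). The log2 fold change was −0.90 with a 95% interval from −1.84 to 0.03 and an edgeR padj of 0.562. The sums of microglial markers, given above, overlapped between the groups through CON2 (318 CPM). An unadjusted p under 0.05 was found for 9 of these 10 markers (4 of the 5 paired in the functional catalogues), against 9.31% of all genes tested, and their median log2 fold change was 0.92.

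The endothelial NO synthase NOS3 had 8.75, 13.7, 6.08, 3.37 and 20.3 CPM in CON2, CON3, CON4, CON5 and CON13. The WD libraries WD6, WD7, WD8, WD9 and WD15 had 9.49, 4.97, 8.45, 4.15 and 5.42 CPM. Both the highest and the lowest level were in control libraries, and CON13 was again the highest, on 17 read pairs. For NOS3 the log2 fold change was −0.57 with a 95% interval from −1.43 to 0.29 and an edgeR padj of 0.726. Without CON13 it was −0.33, and with depth group (low or high) as a covariate −0.26. Endothelial markers (7 of 10 paired, none called by edgeR or DESeq2, 6 with a point estimate above 0) summed to 131 to 206 CPM in control and 155 to 310 CPM in WD.

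None of the 3 NO synthases thus passed the test, all 3 had point estimates below 0, as did 48.1% of all genes tested, and the intervals of NOS2 and NOS3 reached down to 0.280 and 0.372 of the control level and up to 1.02 and 1.23 of it.

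ARG1 was close to the limit of detection and was not tested, since it fell under the filter on low counts. In CON2, CON3, CON4, CON5 and CON13 it had 4, 3, 0, 15 and 7 read pairs, and in WD6, WD7, WD8, WD9 and WD15 it had 2, 3, 4, 6 and 0. These 44 read pairs give 0.854, 0.71, 0, 2.20 and 8.37 CPM in control and 0.949, 0.383, 0.615, 0.518 and 0 CPM in WD. CON13 alone held 69.0% of the summed control level, on 7 read pairs, and 1 library of each condition had none. In CON4 and WD15 a count of 0 allows up to 0.344 and 0.625 CPM, the worth of 3 read pairs, which covers counting error only.

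The mitochondrial arginase ARG2 was counted by 7 to 330 read pairs in each library. Its level was 7.90, 13.01, 16.9, 15.2 and 8.37 CPM in CON2, CON3, CON4, CON5 and CON13. In WD6, WD7, WD8, WD9 and WD15 it was 5.69, 23.1, 16.0, 28.5 and 16.9 CPM. WD9 and WD7 lay above every control library, WD15 lay level with the highest of them (16.88 CPM, against 16.87 CPM in CON4), but WD6, a thin library, lay below all of them. The mean was 12.3 ± 4.02 CPM in control and 18.0 ± 8.56 CPM in WD (SD, n = 5 each). On the log2 scale the change was 0.54 with a 95% interval from −0.13 to 1.21 and an edgeR padj of 0.648. It was 0.72 without WD6 (padj 0.226) and 0.31 without WD9, and did not pass the test in either case.

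The methylarginine hydrolase DDAH1 had 60.2, 66.2, 74.7, 96.6 and 31.1 CPM in CON2, CON3, CON4, CON5 and CON13. It had 61.7, 68.6, 73.3, 82.2 and 59.2 CPM in WD6, WD7, WD8, WD9 and WD15. All 5 WD libraries lay within the range of the control libraries, whose lowest value was that of CON13. Its log2 fold change was 0.04 with a 95% interval from −0.42 to 0.50 and an edgeR padj of 0.976, and its sign turned when CON2, CON13, WD8 or WD9 was left out (down to −0.11, without CON13).

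Its paralogue DDAH2 had 11.1, 9.46, 9.98, 8.64 and 14.3 CPM in CON2, CON3, CON4, CON5 and CON13, and 12.8, 10.5, 10.1, 10.5 and 11.7 CPM in WD6, WD7, WD8, WD9 and WD15. Here too the WD libraries all lay within the control range, and CON13, with 12 read pairs, was the highest. Its log2 fold change was 0.10 with a 95% interval from −0.37 to 0.56 and an edgeR padj of 0.941. The log2 ratio of DDAH1 to DDAH2 was 2.54 ± 0.882 in control and 2.62 ± 0.311 in WD, a difference of 0.08 (two-sided exact permutation test, p = 0.913). CON13, with a ratio of 1.11, was the lowest library, and the other 9 had 2.26 to 3.47.

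**Figure D3:**
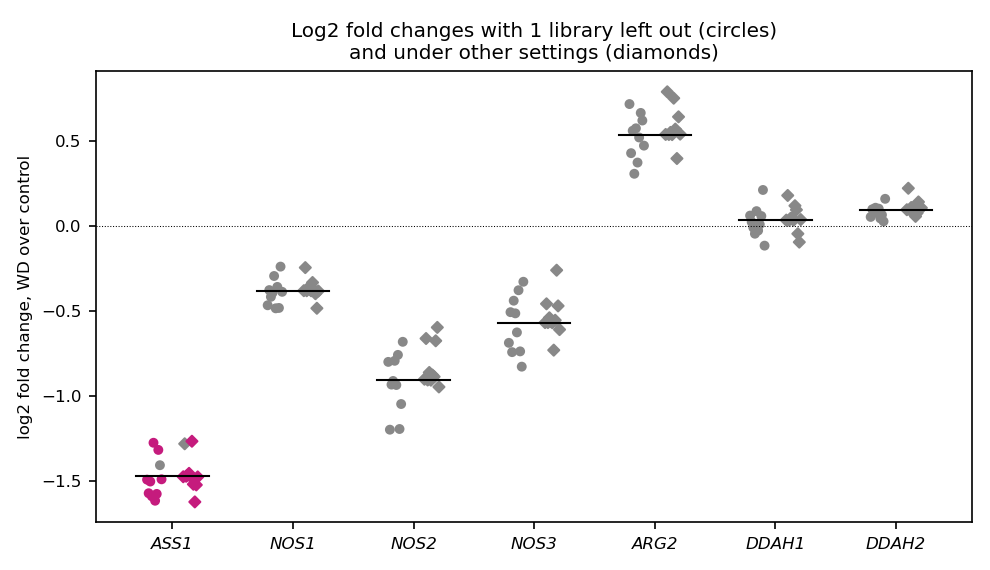
Log2 fold change of WD over control (vertical axis) of the 7 enzymes tested. The line is the value reported, circles are fits with 1 of the 10 libraries left out, and diamonds are fits with another normalization, filter, test or covariate. Pink marks a padj of at most 0.05: ASS1 passed in 9 of 10 fits with a library left out and ranged from −1.61 to −1.27 in them, and no other enzyme passed in any fit shown.

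The wider pathway was described through 6 lists of 58 genes, of which 38 had an ID and 37 were tested. Of these 37, 1 (SAT1) passed the test, higher in WD, beside 0.27% of all genes tested that were called higher, and none was called lower by edgeR. DESeq2 called 3 (SAT1, SLC3A2 and DLG4, the last lower in WD), beside 1.27% of all genes it tested. All 3 had an ID only in the p-ordered table. Of the 37, 20 had a log2 fold change above 0 and the median was 0.00. An unadjusted p under 0.05 was found for 9 of the 37, against 9.31% of all genes tested. However, 7 of the 38 had an ID only in the p-ordered table and were there because their p was low. Among the 30 tested genes paired in the functional catalogues, which do not depend on p, none passed by edgeR or DESeq2, 3 had an unadjusted p under 0.05 and the median was 0.00.

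For arginine supply, 4 of 9 listed genes had an ID, all through the p-ordered table. The cationic amino acid transporters SLC7A1 and SLC7A2 bring arginine into cells. SLC7A1 had 72.4 ± 17.1 CPM in control and 101.5 ± 24.7 CPM in WD (SD, n = 5 each), and SLC7A2 had 13.9 ± 1.36 and 18.3 ± 1.92 CPM. Their log2 fold changes were 0.48 and 0.41, with edgeR padj of 0.472 and 0.531. SLC3A2, the heavy chain shared by several amino acid transporters, had 60.9 ± 8.07 CPM in control and 90.2 ± 9.19 CPM in WD, with a log2 fold change of 0.55 and an edgeR padj of 0.195, while DESeq2 gave a padj of 0.0184. SLC7A2 and SLC3A2 had no overlap between the groups, against 2.62% of all genes tested, but genes of low p were the ones paired here. The fourth gene, CPS1, the mitochondrial carbamoyl phosphate synthetase of the urea cycle, had 5.51 ± 4.51 CPM in control and 1.79 ± 1.31 CPM in WD, with a log2 fold change of −1.45. It is named for completeness, after its values were seen. None of the 4 passed the test by edgeR.

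Of 11 listed genes for other uses of arginine, in the synthesis and turnover of creatine and polyamines, 5 had an ID. SAT1 had one only through the p-ordered table, where genes of low p were more likely to be paired. SAT1, which acetylates spermidine and spermine and so starts their breakdown or export, rose. It had 51.02, 63.9, 96.4, 76.6 and 49.0 CPM in CON2, CON3, CON4, CON5 and CON13, and 116, 166, 159, 186 and 185 CPM in WD6, WD7, WD8, WD9 and WD15. Every WD library lay above every control library, against 2.62% of all genes tested whose groups did not overlap in either direction. The log2 fold change was 1.25 with a standard error of 0.205 and an edgeR padj of 0.00633. With libraries scaled by their totals alone its padj was 0.637. Ornithine decarboxylase ODC1, the first step from ornithine to polyamines, had 27.8 ± 4.71 CPM in control and 31.9 ± 5.97 CPM in WD, with an interval of the log2 fold change that includes 0.

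Of the genes for tetrahydrobiopterin, the cofactor that all NO synthases need, 3 of 6 had an ID, QDPR only through the p-ordered table, and none passed. The dihydropteridine reductase QDPR had 67.7 ± 13.2 CPM in control and 48.4 ± 11.4 CPM in WD, with a log2 fold change of −0.48 and an edgeR padj of 0.467, and sepiapterin reductase SPR had 14.5 ± 3.54 and 16.6 ± 2.02 CPM. Among the partners of NO synthases, 5 of 9 had an ID, DLG4 only through the p-ordered table, and none passed by edgeR. The calmodulin gene CALM3, whose product activates NOS1 and NOS3, had 338 ± 42.9 CPM in control and 293 ± 72.4 CPM in WD, and CALM2 had 191 ± 85.4 and 173 ± 74.7 CPM. DLG4 encodes PSD-95, the postsynaptic scaffold that holds NOS1 near NMDA receptors. It had 167 ± 23.3 CPM in control and 111 ± 22.3 CPM in WD, with a log2 fold change of −0.58 and a padj of 0.227 by edgeR and 0.0406 by DESeq2.

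Receivers of the NO signal were covered best, with 12 of 13 listed genes paired, all through the functional catalogues. None passed the test and the median log2 fold change was −0.15. GUCY1B1, the beta subunit of soluble guanylate cyclase, had 65.7 ± 14.1 CPM in control and 70.5 ± 28.7 CPM in WD. PDE1B, a calmodulin-dependent phosphodiesterase that breaks down cyclic GMP, had 44.4 ± 14.4 CPM in control and 26.3 ± 7.24 CPM in WD, a log2 fold change of −0.72 and an edgeR padj of 0.292. PRKG2, a cyclic GMP-dependent kinase, had 7.04, 7.33, 9.87, 5.86 and 26.3 CPM in CON2, CON3, CON4, CON5 and CON13, and 0.475, 4.46, 4.61, 8.12 and 3.75 CPM in WD6, WD7, WD8, WD9 and WD15. Its highest and lowest values were in the thinnest libraries, CON13 and WD6. The log2 fold change of PRKG2 was −1.09 (edgeR padj 0.474), and −0.52 without these 2 libraries. PDE10A, another phosphodiesterase, had 22.1 ± 1.39 CPM in control and 29.2 ± 6.16 CPM in WD, with a log2 fold change of 0.41 and an edgeR padj of 0.510.

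Of the enzymes that methylate arginine in proteins, the source of the methylarginines that DDAH1 is known to clear, 9 of 10 had an ID, 8 were tested and none passed. PRMT1 had 41.2 ± 7.40 CPM in control and 41.4 ± 9.08 CPM in WD, and PRMT7 had 27.2 ± 2.89 and 22.6 ± 5.62 CPM.

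**Figure D4:**
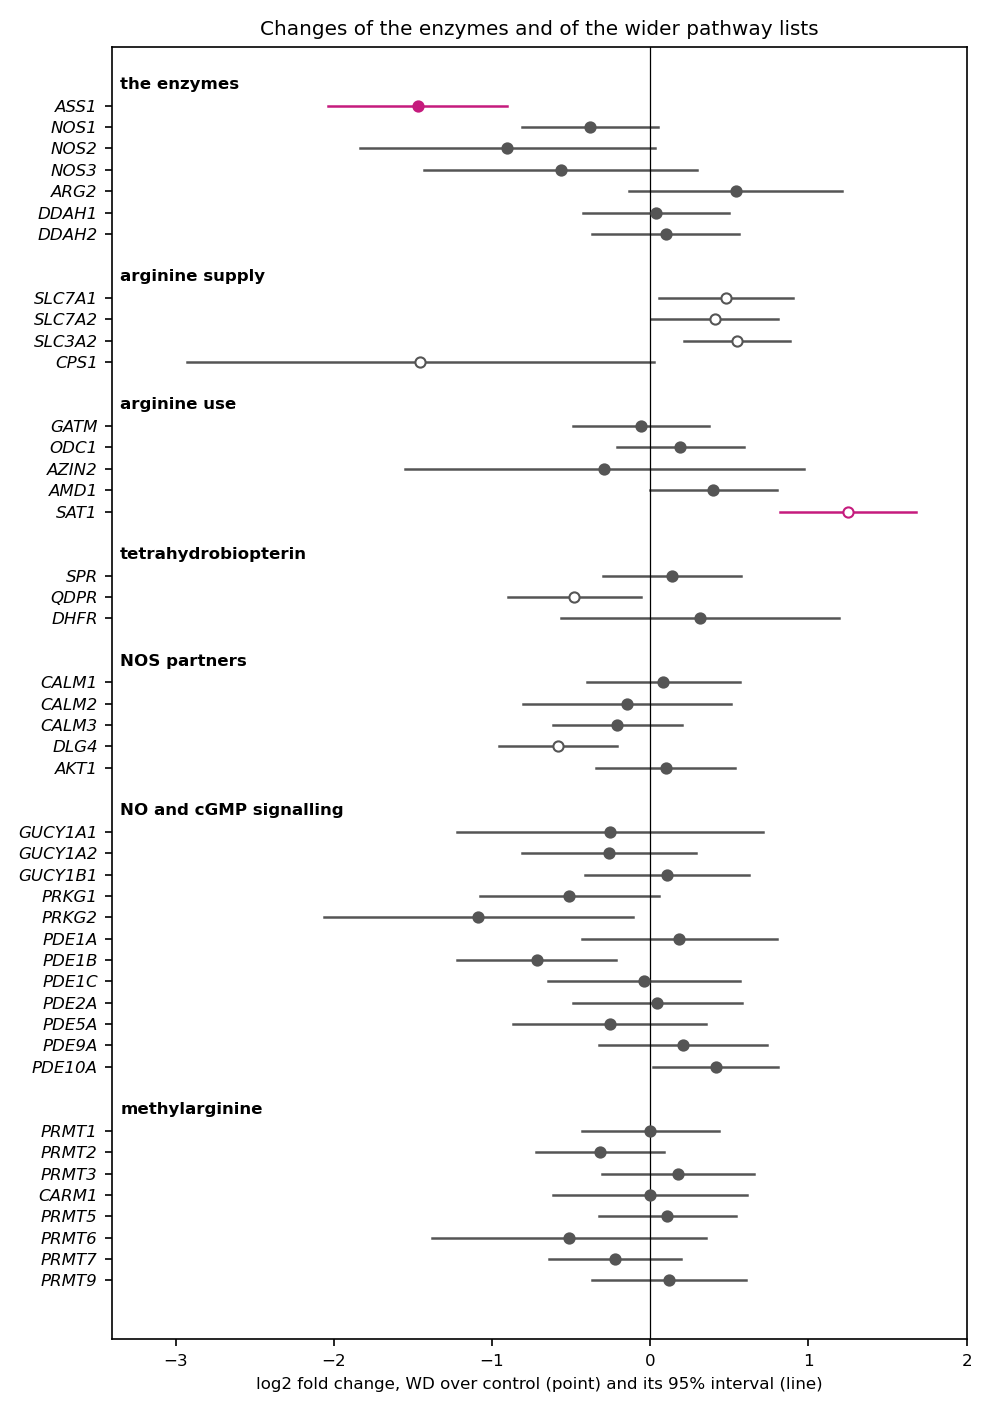
Log2 fold change of WD over control (horizontal axis; point) with its 95% interval (line) for the 7 enzymes tested and for the 37 tested genes of the wider pathway, grouped by role. Pink marks a padj of at most 0.05 (ASS1 at −1.47 and SAT1 at 1.25). Open points are pathway genes paired with an ID only through the p-ordered table, as ASS1 also was. Most intervals include 0.

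The genes whose pattern over the 10 libraries was most like that of an enzyme were found among 3392 tested genes with a symbol, for the 5 enzymes with at least 10 read pairs in every library. These 3392 include genes paired only through the p-ordered table, among them DPP10, KCNT1 and DNAH2 below. Likeness was measured as the root mean square difference of log2 CPM after each gene was centred on its own mean. For ASS1 these were DPP10 (0.264), TRHDE (0.295) and RET (0.325). DPP10, an auxiliary subunit of potassium channels, had 32.6 ± 12.2 CPM in control and 13.5 ± 3.70 CPM in WD (SD, n = 5 each). TRHDE, the ectoenzyme that degrades thyrotropin-releasing hormone, had 20.8 ± 5.47 and 9.28 ± 4.18 CPM, and RET, the receptor tyrosine kinase for GDNF family ligands, had 54.0 ± 17.1 and 21.7 ± 4.46 CPM. All 3 were chosen for following ASS1, so that a lower level in WD came with the choice and no test is given.

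For NOS1 the most similar patterns were those of KCNT1 (0.139), ZNF623 (0.161) and ZNF827 (0.177). NOS3 was matched most closely by ANGPT1 (0.192), DNAH2 (0.259) and CASZ1 (0.309). The nearest to DDAH1 were KDM3A (0.160), RIOK1 (0.160) and HDAC2 (0.164), and the nearest to DDAH2 were TRIO (0.120), RBCK1 (0.122) and STK35 (0.140). Genes that vary little between libraries reach small differences most easily, and the libraries also differ in depth.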

How the data were processed

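The authors merged the read files, trimmed adaptors (BBDuk), mapped the reads to Camdro2 (STAR) and counted read pairs per gene (FeatureCounts). The deposited counts are whole numbers without normalization, 1 column per library and no pooling. The annotation release and strand setting are not given in the sources used here. A deposited table of normalized values (the same counts divided by 1 size factor per library) was not used.

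The groups came from the labels. WD was compared with control in edgeR 4.0.16 (R 4.3.3; robust quasi-likelihood fit, TMM, filterByExpr by group, no covariate) and p was adjusted by the Benjamini-Hochberg method across 14432 genes, with 0.05 as threshold. The same steps were tested on simulated data. A standard error is the log2 fold change divided by the square root of F. Log2 ratios used a prior count of 0.5 and a two-sided exact permutation test. Symbols came from supplementary tables of the study, which pair 4351 of 22444 IDs. No genome sequence was used here, so no coordinates or sequences are given.

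Alternatives were DESeq2 1.42.0, its size factors in edgeR, library totals, TMM without the 5 dominant IDs, a non-robust fit, no count filter or a minimum of 10 counts per library, RNA integrity number, short fragments (under 300 bp) or depth group as covariates, and each library left out. The depth group split the libraries into low and high by their counts outside the 5 dominant IDs. Leaving out both of the thinnest libraries was added after seeing the data.

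The genes named were the 8 enzymes and the 3 genes most like each enzyme with at least 10 counts in every library. Pathway genes were named if past the threshold, with an unadjusted p under 0.05, or among the 2 with the highest mean CPM of their role. CPS1 met none of these criteria and was added after its values were seen. Members and lists were chosen with earlier results of these data known. Astrocyte markers (2 of 7 paired, both only through the p-ordered table; none called by edgeR or DESeq2) summed to 70.5 to 90.4 CPM in control and 83.5 to 148 CPM in WD, and oligodendrocyte markers (7 of 10 paired, none called by either) to 117 to 309 and 113 to 250 CPM.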

Additional observations from a re-analysis of the deposited data

Results flagged for a closer look

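Among the 16 groups of 5 libraries checked for a single library far from the rest (8 enzymes in 2 conditions), 1 had such a library, and chance alone gives about 1 in 20. It was ASS1 in the WD libraries. WD15 had a log2 CPM of 3.72, the nearest of the other 4 WD libraries had 4.98, and this gap was 0.793 of the range of the group. WD15 was also the WD library with the highest sum of microglial markers (760 CPM), and with the highest sums of endothelial (310 CPM) and astrocyte markers (148 CPM) of all 10 libraries; the part of these in its low ASS1 was not tested.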

How the results depend on the processing

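No paired analysis was possible because the groups share no replicate numbers. ASS1 was called in 10 of 11 other settings (log2 fold change −1.62 to −1.26); the exception was scaling by library totals alone (−1.28, padj 0.919), where no enzyme was called (0), only 10 genes were called over all, 70% of them higher in WD against 54.2% of the 72 genes called in the reported comparison, and the median log2 fold change of all genes moved to 0.161. With a library left out, ASS1 ranged from −1.61 to −1.27 and padj from 0.0117 to 0.0577; between 0 and 1 enzymes were called, 0 without CON5. NOS1 ranged from −0.48 to −0.24, NOS2 from −1.20 to −0.68, NOS3 from −0.83 to −0.33, ARG2 from 0.31 to 0.72, DDAH1 from −0.11 to 0.21 and DDAH2 from 0.03 to 0.16. None of these 6 was called in any setting run. With depth group as a covariate NOS3 was −0.26. DDAH1 turned to −0.043 with depth group as a covariate and to −0.092 without both of the thinnest libraries. The difference in the ASS1 to NOS1 ratio ranged from −1.28 to −0.93 (exact p 0.00794 to 0.0238), and that in the DDAH1 to DDAH2 ratio from −0.28 to 0.31. Genes called over all were 72, and 209 with DESeq2 and 224 with depth group as a covariate. They were 40 to 102 with a library left out (40 without CON3, 42 without CON5). With the RNA integrity number as a covariate 104 genes were called, 67.3% higher in WD. For ARG1, the fit with no filter on low counts gave −1.95 (edgeR padj 0.683) and DESeq2 −2.12 (padj 0.459), both on 44 read pairs. SAT1 stayed called with each library left out (1.14 to 1.40) and lost its call with library totals (1.43, padj 0.637). The cause of these changes was not tested. NOS2, NOS3 and ARG1 had at most 46, 58 and 15 read pairs in a library, and counting error was not separated from variation between camels.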
